A study of Mus musculus with 10 samples.

Results

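The genes described here are 10 components of the mouse proteasome, chosen by exact gene symbol from 77175 entries of a bulk RNA sequencing count table. They are the inducible catalytic subunits Psmb8, Psmb9 and Psmb10, the constitutive catalytic subunits Psmb5, Psmb6 and Psmb7, the PA28 activator genes Psme1, Psme2 and Psme3, and the assembly factor gene Pomp. All 10 passed the filter on low counts and were among the 15526 genes tested. The samples were 2 mouse melanoma cell lines, B16-F10-OVA, here called OVA, and B16-F10, here called WT. The OVA line is B16-F10 carrying a lentiviral construct, labelled pLV[Exp]-Neo-EF1A>{ovalbumin}, in which the EF1A promoter drives ovalbumin, a model antigen. The labels do not say whether it is 1 clone. Each line was given IFN-γ at 50 ng/ml for 24 h (3 libraries each of OVA and WT) or left as an untreated control (2 libraries each of OVA and WT). The design sets the IFN-γ response of the OVA line beside that of WT, and that comparison is made here for the proteasome genes.

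The proteasome degrades tagged proteins in a barrel of stacked rings, the 20S core, whose inner β rings carry the catalytic sites. The subunit encoded by Psmb5 cuts after hydrophobic residues, that of Psmb7 after basic residues and that of Psmb6 after acidic residues. In cells exposed to IFN-γ, newly built cores can take up the products of Psmb8, Psmb10 and Psmb9 in their places, which gives the immunoproteasome and a different set of peptides for MHC class I. The products of Psme1 and Psme2 form the ring-shaped activator PA28αβ that caps the core, that of Psme3 forms the nuclear PA28γ, and Pomp helps to join half-cores during assembly.

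Promoter windows from RefSeq (build GRCm38.p6, 250 bases before to 50 after the annotated start) were searched on both strands for short patterns of factors tied to these genes, of which 3 are given. They are GAAA and GAAA with any 2 bases between them for the interferon-stimulated response element bound by IRF factors, TGACNNNGC for the antioxidant response element bound by Nfe2l1 and Nfe2l2, and GGG and CC with any 5 bases between them for κB sites. Of 32851 mouse windows, 3.44% held the first, 12.4% the second and 50.8% the third, so the last says little. Of the 9 genes with a window (Psmb7 had none), 3 held a match to 1 of the first 2 patterns. These 3 windows are shown because they hold that match. They lie at chr14:55578244-55578543 (plus strand) for Psme1, chr14:54617946-54618245 (minus strand) for Psmb5 and chr11:70525107-70525406 (plus strand) for Psmb6. Capitals mark the match, read 5′ to 3′ on the gene's own strand.
Psme1: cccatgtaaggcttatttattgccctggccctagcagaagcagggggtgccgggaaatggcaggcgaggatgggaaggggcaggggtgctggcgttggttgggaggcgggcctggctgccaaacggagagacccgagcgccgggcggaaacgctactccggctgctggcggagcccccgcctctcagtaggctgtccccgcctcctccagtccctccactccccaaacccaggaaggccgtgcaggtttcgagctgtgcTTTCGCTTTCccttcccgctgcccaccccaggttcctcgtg
Psmb5: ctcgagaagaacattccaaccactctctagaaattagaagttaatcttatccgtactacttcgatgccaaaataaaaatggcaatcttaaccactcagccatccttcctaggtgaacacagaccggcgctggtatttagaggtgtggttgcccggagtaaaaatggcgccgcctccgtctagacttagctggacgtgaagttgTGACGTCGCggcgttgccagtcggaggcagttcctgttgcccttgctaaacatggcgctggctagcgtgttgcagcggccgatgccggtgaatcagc
Psmb6: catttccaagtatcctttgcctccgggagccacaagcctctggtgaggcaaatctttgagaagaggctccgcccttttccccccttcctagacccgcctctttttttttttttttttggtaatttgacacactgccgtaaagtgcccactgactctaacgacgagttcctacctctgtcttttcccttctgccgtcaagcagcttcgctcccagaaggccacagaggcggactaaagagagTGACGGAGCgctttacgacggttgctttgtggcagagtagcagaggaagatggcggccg
In Psme1, which is induced, the capitals are an interferon-stimulated response element read on the opposite strand, inside the transcribed part from position 10 to position 19 relative to its start. The constitutive Psmb5 and Psmb6 each held an antioxidant response element match, from position -47 to position -39 in Psmb5 and from position -9 to position -1 in Psmb6. No match to these 2 patterns was found in the windows of Psmb9, Psmb10 and Psme2, which are induced as well, or of Psme3 and Pomp. This says only that those letters are not in that stretch. A match is a description of letters and no sign that a factor binds there.

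Levels are given in CPM, the count of a gene scaled to the library's size with TMM factors. Library totals ran from 17728722 to 19642533 counts. The 3 deepest were the WT libraries given IFN-γ, with 18802348, 19642533 and 19368512 counts. All 7 melanocyte markers looked at had counts in every group, with a summed level of 23095.5 to 24499.7 CPM over all libraries. Leukocytes make immunoproteasome subunits without treatment, so 8 of their markers were summed. Ptprc, Cd3e and Itgax had no counts in any library. The summed level was 0.392 to 0.781 CPM in treated OVA libraries, against 0.757 to 0.876 CPM in untreated OVA libraries, and 0.433 to 0.978 CPM in treated WT libraries, against 0.784 to 0.939 CPM in untreated WT libraries. In bulk RNA a change in the number of cells that make a transcript and a change in RNA per cell cannot be told apart. The labels do not say that the libraries of a group come from separate cultures, so each p-value measures the spread between these libraries, which may be technical.

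After IFN-γ the inducible catalytic genes Psmb8, Psmb9 and Psmb10 and the activator genes Psme1 and Psme2 were at least 11.9-fold higher in both lines. Pomp and Psmb6 rose by between 1.29-fold and 1.48-fold. Psmb5, Psmb7 and Psme3 had fold changes between 0.926 and 1.14. In the OVA line 9 of the 10 genes were called higher and 1, Psme3, was called lower, at a Benjamini-Hochberg adjusted p under 0.05 in edgeR's quasi-likelihood test. Across all genes tested 48.8% were called in that comparison, 25.9% higher and 22.9% lower. In the WT line 8 were called higher, none lower, and Psmb5 and Psme3 were not called, where 44.2% of all genes were called, 24.5% higher and 19.7% lower. The median log2 change over the 10 genes was 2.07 in OVA and 2.03 in WT, and the median over all genes tested was 0.0018 in OVA and 0.011 in WT. In the OVA line every treated library lay above both untreated ones for 9 genes and below both for Psme3, and such a split held for 34.0% of all genes upward and 31.7% downward. In the WT line 9 genes had every treated library above both untreated ones, which 33.0% of all genes did, and Psme3 overlapped. With calls this common among all genes, the count of members called says little about them, and the values are given gene by gene.

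**Figure D1:**
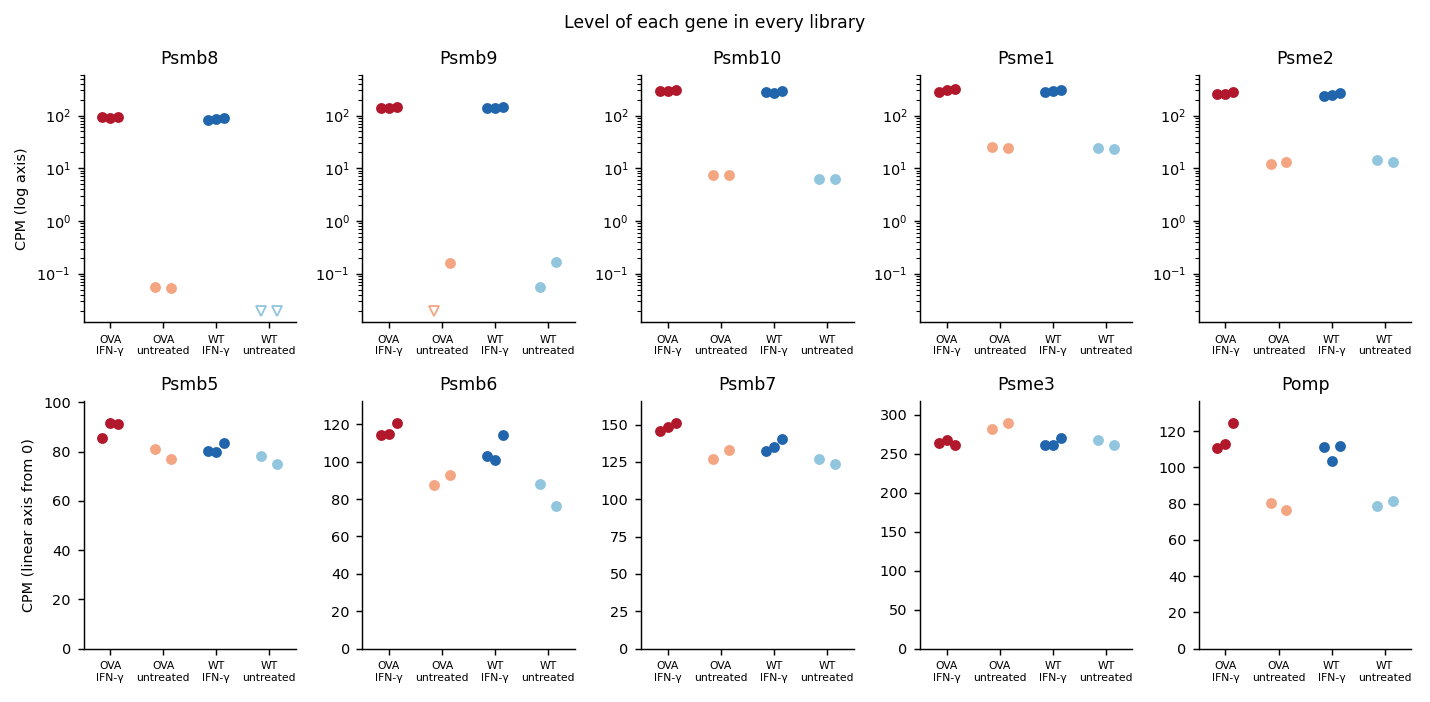
Level of each of the 10 genes in CPM in every library, with treated OVA, untreated OVA, treated WT and untreated WT from left to right and 1 point per library; the upper row has a log axis and open triangles for libraries with no counts, the lower row a linear axis from 0. In the upper row, treated libraries of Psmb8, Psmb9, Psmb10, Psme1 and Psme2 stand far above untreated ones in both lines, while in the lower row Psme3 stays between 261 and 289 CPM throughout.

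Psmb8 encodes the inducible β5i subunit, also called LMP7, and lies in the MHC region of chromosome 17. It had 92.7, 90.0 and 94.2 CPM in treated OVA libraries, against 0.0548 and 0.0541 CPM in untreated OVA libraries, where each value is a single read. WT libraries had 81.9, 84.7 and 89.0 CPM with IFN-γ, and no read in either untreated library. The groups were fully apart in both lines. Summed over libraries, 4945 reads in treated OVA stood against 2 in untreated OVA, a ratio of 1696 after scaling for depth with a 95% counting interval of 469 to 14005. In WT the sum was 4857 reads with IFN-γ and 0 without, so the gene was at least 1022-fold higher, taking 3 reads over the untreated group as the floor. The adjusted p was 3.86e-18 in OVA and 6.05e-18 in WT. Intervals and floors here cover counting error only.

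Psmb9, which encodes β1i or LMP2 from the same stretch of chromosome 17, was also close to 0 before treatment. It had 140.1, 138 and 146 CPM in treated OVA libraries, against 0 and 0.162 CPM in untreated ones. In WT it had 140.4, 137 and 148 CPM with IFN-γ, against 0.0552 and 0.168 CPM without. The untreated values rest on 0 and 3 reads in OVA and 1 and 3 reads in WT, so a fold change is only loosely bounded. The ratio was 1733 in OVA (7582 reads against 3, counting interval 593 to 8406, adjusted p = 6.14e-19) and 1276 in WT (8089 reads against 4, counting interval 498 to 4684, adjusted p = 6.85e-19).

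Psmb10, on chromosome 8, encodes β2i or MECL-1 and was the only inducible catalytic gene with a clear level before treatment. Psmb10 had 289, 293 and 309.7 CPM in IFN-γ treated OVA libraries, against 7.56 and 7.52 CPM in untreated OVA libraries. In the WT line it had 278, 273 and 291 CPM with IFN-γ, against 6.29 and 6.22 CPM without. Treated and untreated libraries did not overlap in either line. The log2 change was 5.30 (SE 0.084, adjusted p = 1.58e-20) in OVA, a 39.4-fold difference, and 5.49 (SE 0.092, adjusted p = 1.94e-20) in WT, a 44.9-fold difference. Psmb10 was also the inducible subunit with the highest level after treatment per kilobase, whether the count was divided by coding length or by the exon length of the transcript.

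The constitutive catalytic genes had fold changes between 1.06 and 1.29 after IFN-γ in the 2 lines. Psmb6, which encodes the acidic-site subunit β1, changed most. Psmb6 had 114, 115 and 121 CPM in IFN-γ treated OVA libraries, against 87.7 and 92.9 CPM in untreated OVA libraries. WT libraries of Psmb6 had 103, 101 and 115 CPM with IFN-γ, against 88.0 and 76.5 CPM without. Every treated library was above every untreated one of its line, and the spread among WT libraries was wide on both sides. The log2 change was 0.37 (SE 0.059, adjusted p = 6.22e-05) in OVA and 0.37 (SE 0.060, adjusted p = 8.10e-05) in WT, a 1.29-fold difference in each line.

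Psmb7, which encodes the basic-site subunit β2, was called higher in both lines. It had 146, 149 and 151 CPM in treated OVA libraries, against 127 and 133 CPM in untreated ones, and the log2 change was 0.19 (SE 0.036, adjusted p = 0.000388). In WT it had 132, 135 and 140.0 CPM with IFN-γ, against 127 and 124 CPM without, with a log2 change of 0.12 (SE 0.037, adjusted p = 0.0174). The WT call was lost with DESeq2 (adjusted p = 0.0755), without TMM factors (0.0724), without the second untreated WT library (0.140) and without the third treated WT library (0.102).

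Psmb5, which encodes the hydrophobic-site subunit β5 that Psmb8 replaces, had the smallest log2 change of the catalytic genes in each line. Its 95% intervals overlapped those of Psmb7 in both lines, so their order is not resolved. Psmb5 had 85.7, 91.5 and 91.2 CPM in treated OVA libraries, against 81.1 and 76.9 CPM in untreated ones. The log2 change was 0.18 (SE 0.044, adjusted p = 0.00261). That call was lost without the second untreated OVA library (adjusted p = 0.0562). In WT it had 80.1, 79.8 and 83.3 CPM with IFN-γ, against 78.3 and 75.0 CPM without, and the log2 change of 0.081 (SE 0.044, adjusted p = 0.154), with a 95% interval of -0.013 to 0.17, was not called. No constitutive catalytic gene was called lower after IFN-γ in either line.

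Within each catalytic pair the inducible transcript made up a small part of the total before treatment and a large part after it. Shares below are the inducible gene's part of the pair, computed per kilobase of coding length, with the value per kilobase of exon length after it, since reads also cover untranslated sequence and the table gives no gene lengths. Psmb10 made up 66.8%, 66.6% and 67.6% of the Psmb10 and Psmb7 total in treated OVA libraries, against 5.69% and 5.42% in untreated ones. In WT its share was 68.1%, 67.2% and 67.9% with IFN-γ, against 4.79% and 4.85% without. By exon length the means were 63.9% in treated OVA, against 4.88% in untreated OVA, and 64.7% in treated WT, against 4.23% in untreated WT, so Psmb10 outnumbered Psmb7 after treatment on both scales.

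Psmb9 made up 57.2%, 56.7% and 56.8% of the Psmb9 and Psmb6 total in treated OVA libraries, against 0% and 0.189% in untreated ones. In WT the share was 59.7%, 59.6% and 58.4% with IFN-γ, against 0.0682% and 0.238% without. By exon length the treated means were 41.8% in OVA and 44.1% in WT, so which gene of this pair was the more abundant after IFN-γ turned with the length used. The treated OVA shares of Psmb9 lay below all its treated WT shares, while the shares of Psmb10 and of Psmb8 overlapped between the treated lines. Shares were given no test. Psmb6 averaged 117 ± 3.52 CPM in treated OVA, against 106 ± 7.26 CPM in treated WT (SD, n = 3 each). Psmb9 averaged 141.5 ± 4.03 CPM in treated OVA and 142 ± 5.37 CPM in treated WT. Neither gene was called between the treated lines in edgeR (adjusted p = 0.0955 for Psmb6 and 0.961 for Psmb9). Psmb8 made up 50.9%, 48.5% and 49.7% of the Psmb8 and Psmb5 total in treated OVA libraries, against 0.0646% and 0.0672% in untreated ones. In WT the share was 49.4%, 50.4% and 50.5% with IFN-γ, against 0% in both untreated libraries. By exon length the treated means were 36.3% in OVA and 36.7% in WT, against 0.0381% in untreated OVA and 0 in untreated WT. By coding length, exon length and no length scaling alike, Psmb10 held the largest share of its pair and Psmb8 the smallest after treatment in both lines.

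The summed level of each pair was higher after IFN-γ, with the constitutive gene no lower and the inducible gene added to it. The Psmb8 and Psmb5 sum was 224 ± 4.35 CPM per coding kilobase in treated OVA, against 99.8 ± 3.71 in untreated OVA, and 205 ± 6.63 in treated WT, against 96.8 ± 3.03 in untreated WT. The ratio of treated to untreated means was 2.25 in OVA and 2.12 in WT for this pair, or 1.78 in OVA and 1.67 in WT by exon length. For Psmb9 with Psmb6 it was 2.99 in OVA and 3.16 in WT, or 2.21 in OVA and 2.31 in WT by exon length. For Psmb10 with Psmb7 it was 3.26 in OVA and 3.20 in WT, or 3.00 in OVA and 2.94 in WT by exon length. The 11 structural genes of the 20S core, which every core contains, had a median of 201 CPM per coding kilobase in treated OVA, against 145 in untreated OVA, and 192 in treated WT, against 144 in untreated WT. By exon length these medians were 127 in treated OVA, against 80.4 in untreated OVA, and 118 in treated WT, against 76.9 in untreated WT. All sums are of RNA, and no protein was measured.

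**Figure D2:**
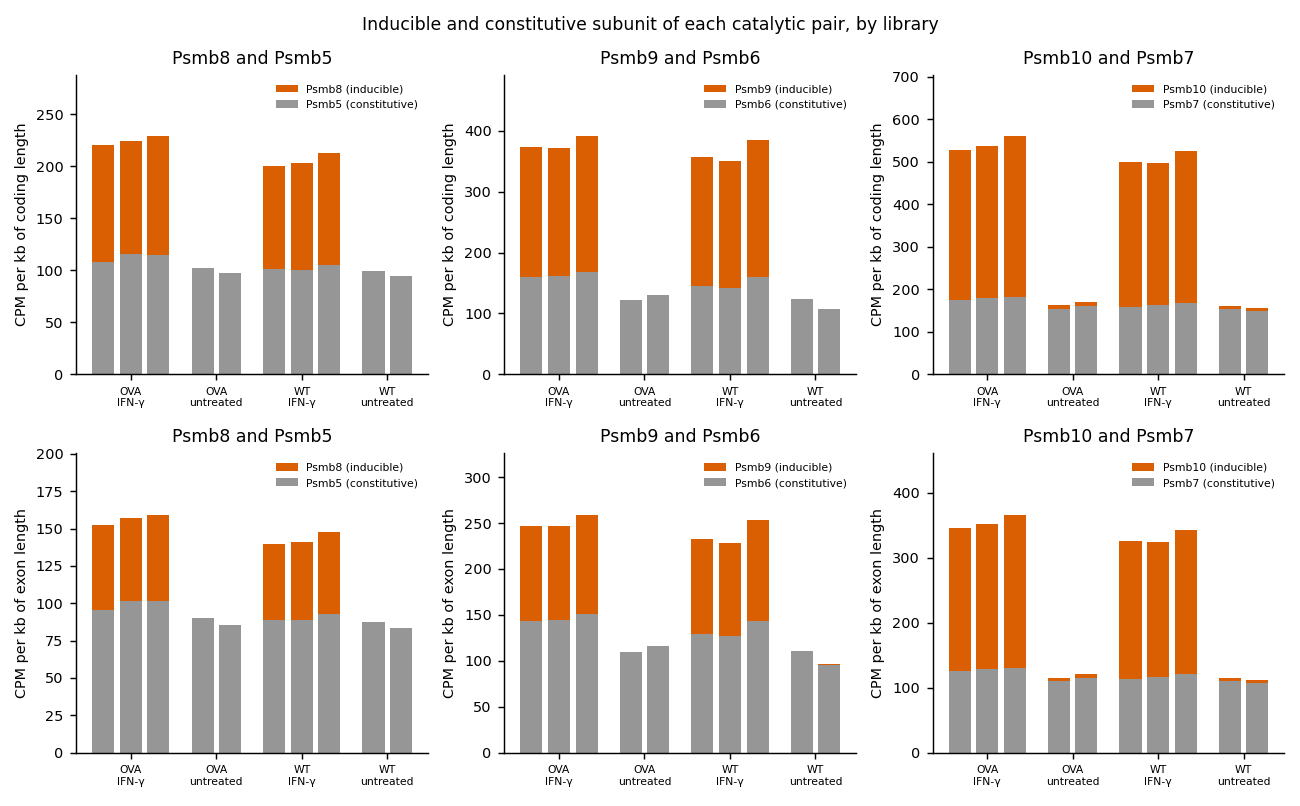
Level of the inducible gene (orange) stacked on the constitutive gene (grey) of each catalytic pair, with 1 bar per library, in CPM per kilobase of coding length (top) and of exon length (bottom). Grey parts vary less between the 4 groups than orange parts. The Psmb6 part runs from a mean of 115 CPM per coding kilobase in untreated WT to 163 in treated OVA. The orange part is close to 0 in untreated libraries except for Psmb10. The Psmb8 part is 49.7% of the treated OVA bars by coding length and 36.3% by exon length.

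Among the PA28 genes, Psme1 and Psme2 rose and Psme3 did not. Psme1, on chromosome 14, encodes the α subunit. Psme1 had 282, 301 and 316 CPM in IFN-γ treated OVA libraries, against 25.6 and 24.8 CPM in untreated OVA libraries. WT libraries of Psme1 had 279.6, 287 and 299 CPM with IFN-γ, against 24.0 and 22.7 CPM without. The groups were far apart in both lines, and the log2 change was 3.57 (SE 0.062, adjusted p = 1.80e-18) in OVA and 3.63 (SE 0.064, adjusted p = 2.00e-18) in WT. These are 11.9-fold in OVA and 12.3-fold in WT. Psme2, its neighbour on chromosome 14, encodes the β subunit. Psme2 had 252, 257 and 279 CPM in IFN-γ treated OVA libraries, against 12.2 and 13.2 CPM in untreated OVA libraries. WT libraries of Psme2 had 239.9, 245 and 268 CPM with IFN-γ, against 14.1 and 12.9 CPM without. It changed by a log2 value of 4.37 (SE 0.090, adjusted p = 3.86e-18) in OVA and 4.21 (SE 0.089, adjusted p = 6.34e-18) in WT. These are 20.7-fold in OVA and 18.5-fold in WT. A second annotated locus, Psme2b, held 144 reads over the 10 libraries beside 29343 for Psme2, and adding its reads to Psme2 gave a log2 change of 4.38 in OVA and 4.22 in WT.

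The α and β transcripts were closer to equal in treated libraries. The ratio of Psme1 to Psme2 per coding kilobase had a median of 1.09 in treated OVA, against 1.91 in untreated OVA, and 1.12 in treated WT, against 1.66 in untreated WT. By exon length the medians were 0.981 in treated OVA, against 1.72 in untreated OVA, and 1.01 in treated WT, against 1.49 in untreated WT. On both scales the treated libraries of a line all lay below its untreated ones. These ratios are a description and were given no test.

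Psme3, which encodes the nuclear PA28γ, was the only member of the 10 that was called higher in neither line. Psme3 had 264, 267 and 262 CPM in IFN-γ treated OVA libraries, against 281 and 289 CPM in untreated OVA libraries. WT libraries of Psme3 had 261, 261 and 270.2 CPM with IFN-γ, against 268 and 262 CPM without. In OVA the treated libraries all lay below the untreated ones and the log2 change was -0.11 (SE 0.030, adjusted p = 0.00568). That call was lost without the second untreated OVA library (adjusted p = 0.0914). In WT the libraries overlapped and the change was -0.0056 (SE 0.030, adjusted p = 0.898), with a 95% interval of -0.069 to 0.058. The ratio of Psme3 to the sum of Psme1 and Psme2 per coding kilobase had a median of 0.461 in treated OVA, against 7.29 in untreated OVA, and of 0.472 in treated WT, against 6.94 in untreated WT. By exon length it was 0.187 in treated OVA, against 2.99 in untreated OVA, and 0.191 in treated WT, against 2.84 in untreated WT.

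Pomp, on chromosome 5, encodes the chaperone that is itself the first substrate of a finished core. Pomp had 111, 113 and 124 CPM in IFN-γ treated OVA libraries, against 80.2 and 76.3 CPM in untreated OVA libraries. In the WT line it had 111, 103 and 112 CPM with IFN-γ, against 78.8 and 81.7 CPM without. No treated library overlapped an untreated one. The log2 change was 0.57 (SE 0.052, adjusted p = 9.11e-08) in OVA, 1.48-fold, and 0.44 (SE 0.052, adjusted p = 2.48e-06) in WT, 1.36-fold. Its change lay close to the median of the structural core genes, 0.51 in each line.

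Ordered by level per coding kilobase, untreated cells of both lines ran Psme3, Pomp, Psmb7, Psmb6, Psmb5, Psme1, Psme2, Psmb10, Psmb9 and Psmb8 from high to low. In untreated OVA these were 374, 185, 157, 126, 99.7, 33.7, 17.7, 9.20, 0.123 and 0.0657 CPM per kilobase. Neighbours in this order did not overlap in any library, except Psmb9 and Psmb8 in OVA. By exon length Psme3 and Pomp moved down, but in both lines the 5 genes from Psme1 to Psmb8 kept that order below the other 5. After treatment Psme1, Psme2 and Psmb10 stood above all 3 constitutive catalytic genes on both scales. In treated OVA they were at 401, 367 and 363 CPM per coding kilobase, against 179 for Psmb7, 163 for Psmb6 and 113 for Psmb5. In treated WT they were at 386, 349.9 and 343, against 163 for Psmb7, 149 for Psmb6 and 102 for Psmb5. On the coding scale, libraries of Psme1 overlapped those of Psme2 in treated OVA, as did those of Psme2 and Psmb10. In treated WT Psme2, Psme3 and Psmb10 overlapped, so their order is not resolved, and so did Psmb7 and Psmb6. Psmb5 and Psmb8 overlapped in both treated groups.

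The rest of the 20S core was higher after IFN-γ by widely differing amounts. All 11 structural genes were called higher in both lines, where 25.9% of all genes were called higher in OVA and 24.5% in WT. Their median log2 change was 0.51 in OVA and 0.51 in WT, with a range from 0.28 (Psma6) to 1.02 (Psma5) in OVA and from 0.17 (Psma6) to 0.89 (Psma5) in WT. Psma5 averaged 170.4 ± 4.56 CPM in treated OVA, against 84.3 ± 0.252 CPM in untreated OVA (log2 change 1.02), and 159 ± 9.58 CPM in treated WT, against 85.7 ± 1.05 CPM in untreated WT (log2 change 0.89). Errors here and below are SDs over 3 treated or 2 untreated libraries. Psmb2 changed by 0.82 in OVA and 0.75 in WT, Psma2 by 0.71 in OVA and 0.70 in WT, and Psma3 by 0.72 in OVA and 0.63 in WT. At the low end, Psma6 at 0.28, Psma7 at 0.32 and Psmb3 at 0.33 in OVA, and Psma6 at 0.17 and Psmb3 at 0.32 in WT, lay under the 0.37 of the catalytic Psmb6. These low ones were named after their values were seen. The difference between structural and constitutive catalytic genes was not tested. Of 4 chaperone genes that build the α ring, only Psmg4 was called, with 1.01 in OVA and 1.03 in WT. It averaged 11.1 ± 0.586 CPM in treated OVA, against 5.47 ± 0.221 CPM in untreated OVA. Psmg1, Psmg2 and Psmg3 were between 0.034 and 0.18 in OVA and between 0.089 and 0.16 in WT, not called.

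**Figure D3:**
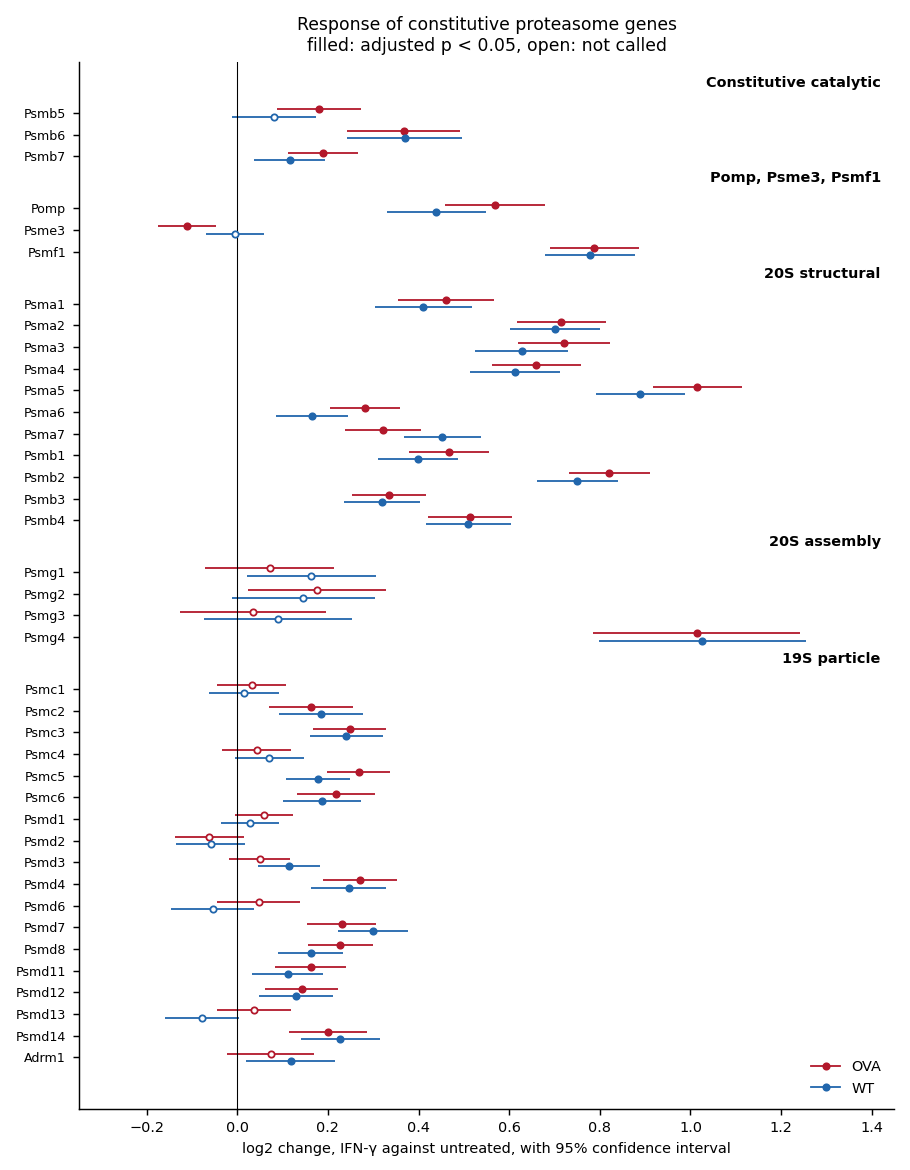
Log2 change after IFN-γ with its 95% confidence interval, OVA in red above WT in blue for each gene, filled where the adjusted p was under 0.05. The 11 structural genes lie right of 0 in both lines. The 19S genes lie closer to 0 by their median, though in WT some, such as Psmd7, lie right of the structural Psma6. Psme3 is the member whose OVA change lies left of 0.

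The 19S particle, which caps the core and unfolds substrates, had a smaller median log2 change than the structural core genes. Of its 18 genes 10 were called higher in OVA and 12 in WT, none lower, against 25.9% of all genes called higher in OVA and 24.5% in WT. The median log2 change was 0.15 in OVA and 0.12 in WT. Psmd7 changed by 0.23 in OVA and 0.30 in WT, and Psmd4 by 0.27 in OVA and 0.25 in WT. Psmc3, an ATPase of the base, changed by 0.25 in OVA and 0.24 in WT, and Psmd14, the deubiquitinase of the lid, by 0.20 in OVA and 0.23 in WT. Of 3 tested 19S assembly chaperones, Psmd10 was called in OVA with a log2 change of 0.28 (SE 0.087, adjusted p = 0.0148) and Psmd9 in WT with 0.17 (SE 0.063, adjusted p = 0.0392), and the difference between lines was not called for either. Psmd10 and Psme4 are named although they were called in OVA alone, a choice made after their values were seen. Paaf1 was not analysed here. Psmf1, which encodes the core inhibitor PI31, changed by 0.79 (SE 0.046, adjusted p = 2.69e-10) in OVA and 0.78 (SE 0.047, adjusted p = 4.07e-10) in WT. Psme4, which encodes the activator PA200, was called lower in OVA, with -0.10 (SE 0.036, adjusted p = 0.0294), and had -0.0032 in WT. Psma8 and Psmb11, subunits of testis and thymus cores, did not pass the count filter, with no read of Psma8 in any library. Psme2b had 21, 32 and 34 reads in treated OVA and 15, 20 and 22 in treated WT, against 0 in all untreated libraries, at least 19.9-fold in OVA and at least 11.99-fold in WT.

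Peptidases that trim or destroy proteasome products moved in both directions. Of 8 tested, 4 were called higher and 1 lower in OVA, and 4 higher and 2 lower in WT. With 48.8% of all genes called in OVA and 44.2% in WT, these counts say little about the list. Erap1, the trimming peptidase of the endoplasmic reticulum, averaged 312 ± 6.49 CPM in treated OVA, against 15.0 ± 0.980 CPM in untreated OVA, and 302 ± 5.37 CPM in treated WT, against 11.01 ± 0.202 CPM in untreated WT. Its log2 change was 4.38 (SE 0.056, adjusted p = 7.68e-21) in OVA and 4.78 (SE 0.064, adjusted p = 5.28e-21) in WT. The cytosolic Lap3 changed by 2.48 (SE 0.040, adjusted p = 1.64e-18) in OVA and 2.45 (SE 0.040, adjusted p = 2.15e-18) in WT. Tpp2 changed by 0.11 (SE 0.034, adjusted p = 0.0132) in OVA and 0.16 (SE 0.034, adjusted p = 0.00112) in WT. Lnpep, which trims peptides in endosomes, was at -0.052 (SE 0.052, adjusted p = 0.433) in OVA, not called, and at 0.19 (SE 0.051, adjusted p = 0.00626) in WT. The lower calls were Npepps in OVA (-0.28) and Npepps (-0.16) and Thop1 (-0.16) in WT, named after their values were seen.

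Of 9 regulators known to act on proteasome or MHC class I genes, 6 were called higher and 2 lower in OVA, and 5 higher in WT, where 48.8% of all genes were called in OVA and 44.2% in WT. Irf1, which binds interferon response elements, averaged 660.4 ± 20.96 CPM in treated OVA, against 10.4 ± 0.0999 CPM in untreated OVA, and 701 ± 22.6 CPM in treated WT, against 10.7 ± 0.520 CPM in untreated WT, a log2 change of 5.99 (SE 0.069, adjusted p = 8.35e-22) in OVA and 6.04 (SE 0.069, adjusted p = 8.01e-22) in WT. Nlrc5, the class I transactivator, averaged 329 ± 2.83 CPM in treated OVA, against 0.245 ± 0.0407 CPM in untreated OVA, and 341 ± 12.7 CPM in treated WT, against 0.0556 CPM in untreated WT. Nfe2l2 changed by 0.36 (SE 0.037, adjusted p = 3.58e-07) in OVA and 0.44 (SE 0.038, adjusted p = 4.59e-08) in WT. Nfe2l1, the factor of the proteasome recovery response, changed by 0.32 (SE 0.032, adjusted p = 2.93e-07) in OVA and 0.21 (SE 0.032, adjusted p = 4.47e-05) in WT, and it was named after its values were seen. So were the lower calls in OVA, Nfkb1 (-0.21) and Ddi2 (-0.20).

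The responses of the lines were compared gene by gene, as OVA minus WT. None of the 10 genes was called for this difference by edgeR's quasi-likelihood test, DESeq2 or limma-voom, against 0.341% of all genes in edgeR, and 1, Psme3, had an unadjusted p under 0.05. For Psmb10 the difference of log2 changes was -0.19 with a 95% interval of -0.45 to 0.075. Psme1 had -0.052 (-0.24 to 0.14) and Psme2 0.16 (-0.11 to 0.43). For the constitutive genes it was 0.10 (-0.033 to 0.23) for Psmb5, -0.0023 (-0.18 to 0.18) for Psmb6 and 0.073 (-0.036 to 0.18) for Psmb7. Pomp had 0.13 (-0.026 to 0.28) and Psme3 -0.11 (-0.20 to -0.015, adjusted p = 0.397). For Psmb8 and Psmb9 the untreated counts of 0 to 4 per group leave the difference without a usable size, and Psmb9 had 0.41 with an interval of -1.97 to 2.79. A difference that misses the threshold does not show that the lines respond alike, and the intervals give the size that these libraries still allow.

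Without IFN-γ none of the 10 genes was called between OVA and WT by any of the 3 tools, where edgeR called 5.53% of all genes. At an unadjusted p under 0.05 stood 2 of them. Psmb10 had 7.54 ± 0.0288 CPM in untreated OVA, against 6.26 ± 0.0540 CPM in untreated WT (SD, n = 2 each), a log2 difference of 0.27 (SE 0.12, adjusted p = 0.237). Psme3 had 285 ± 5.46 CPM in untreated OVA, against 265 ± 4.09 CPM in untreated WT, a difference of 0.11 (SE 0.033, adjusted p = 0.0709). The libraries of the lines did not overlap for 5 of the 10 genes, all higher in OVA, and 26.4% of all genes were split in that direction. For Psmb8, 1 of these 5, the split was a single read in each untreated OVA library against no read in untreated WT.

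With IFN-γ, Psmb5 and Psmb7 were called higher in OVA and no member was called lower, where 6.36% of all genes were called higher, 7.99% lower and 14.4% in either direction. Psmb5 averaged 89.5 ± 3.25 CPM in treated OVA, against 81.1 ± 1.98 CPM in treated WT (SD, n = 3 each), a log2 difference of 0.14 (SE 0.039, adjusted p = 0.0208). Psmb7 averaged 148 ± 2.60 CPM in treated OVA, against 136 ± 4.00 CPM in treated WT, a difference of 0.13 (SE 0.032, adjusted p = 0.0136). Neither call was stable. Both were lost at once without the first treated WT library (adjusted p = 0.0644 for Psmb5 and 0.0586 for Psmb7) and without the second (0.0823 for Psmb5 and 0.0531 for Psmb7), while without the third 6 members were called. Psmb5 was also lost with DESeq2 (0.0514), without the second treated OVA library (0.0818) and without the third (0.0694). Psmb8, at 92.3 ± 2.13 CPM in treated OVA, against 85.2 ± 3.57 CPM in treated WT, had libraries that did not overlap and a difference of 0.12 (SE 0.039, adjusted p = 0.0612), not called, though limma-voom called it (adjusted p = 0.0416), and 15.1% of all genes were split that way. For the other 7 members the log2 difference was between -0.0043 for Psmb9 and 0.13 for Psmb6, and none was called. Psmb6 (adjusted p = 0.0955) was called in 4 of 17 alternative runs, among them without TMM factors (0.0479) and with the replicate block (0.0386). Psmb10 (adjusted p = 0.104) was called in 3 of 17, among them without TMM factors (0.0318) and with the replicate block (0.0225). Among the 11 structural core genes 4 were called higher in treated OVA, and among the 18 genes of the 19S particle 6, none lower. These line comparisons use the same libraries as the difference of responses.

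**Figure D4:**
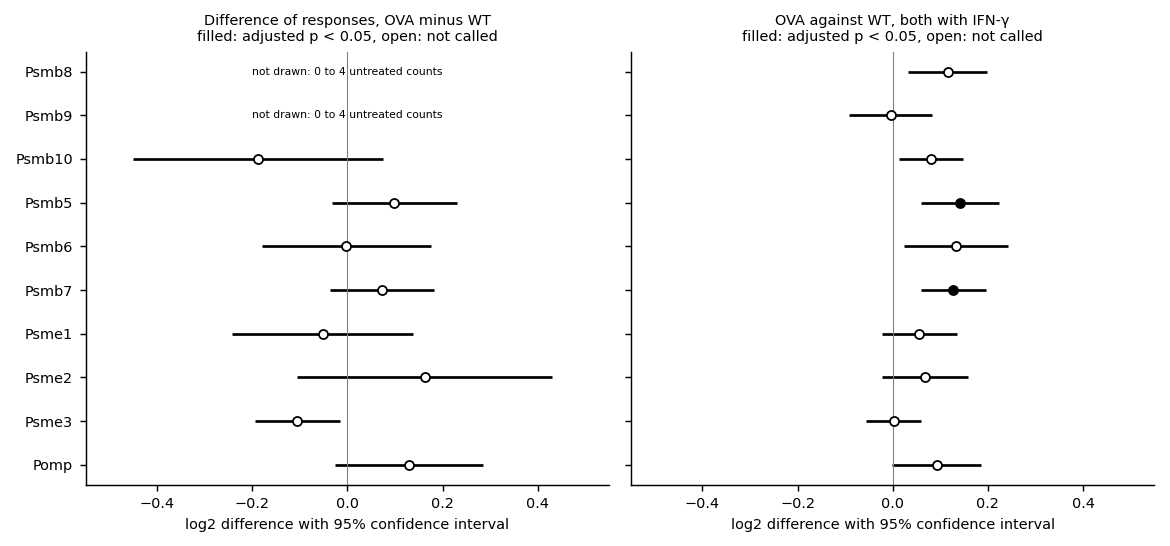
Log2 difference with its 95% confidence interval for each of the 10 genes, on the left between the IFN-γ responses (OVA minus WT) and on the right between treated OVA and treated WT libraries, filled where the adjusted p was under 0.05. All points on the left are open, Psmb8 and Psmb9 are left out there for lack of untreated counts, and on the right Psmb5 and Psmb7 are filled at 0.14 and 0.13.

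Genes whose log2 CPM followed a member most closely over the 10 libraries were ranked by Pearson's r. The libraries fall into treated and untreated sets, so r mostly restates that split, and it is given as a description with n = 10. Psmb10 went with Gbp2 (r = 0.9999), Parp10 and Tap2, the last a chain of the peptide transporter, and Psme1 with Gbp2, B2m and Tap2 (r from 0.9996 to 0.9997). Psmb8 went with Irgm1, Gbp2 and Parp10, Psmb9 with Gm12185, Clec2d and Casp4, and Psme2 with Vwa5a, H2-Ab1 and Nampt. The constitutive genes and Pomp had lower r and other neighbours. Psmb5 was nearest to Srek1ip1 (r = 0.979), Psmb6 to Hsdl2 (0.990), Psmb7 to Pelo (0.983), Pomp to Tk2 (0.991) and Psme3 to Prpf19 (0.971). Members themselves were left out of this ranking. Annotated copies could take reads from a member. Psmb5-ps, Psmb6-ps and Psmb6-ps2 had no counts, and Psmb7-ps2 had 4 counts over all libraries beside 24980 for Psmb7. An unnamed entry on the opposite strand had 33 counts at Psmb6 and another 5 counts at Pomp, and without a stated strand setting reads of a gene and its antisense partner cannot be told apart.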

How the data were processed

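Bulk RNA was sequenced from 10 libraries in 4 groups, taken from GEO's labels. Per the labels' protocols, libraries were made from poly-A RNA with a kit that is not stated to mark strand, and the protocol speaks of tissue where the other labels name cell lines. The authors deposited raw counts per gene. Per the submitters' processing notes, HISAT2 2.0.5, featureCounts 1.6.0 and the build GRCm39 were used, while neither the gene annotation used, nor whether strand was counted, nor how reads with several placements were treated is stated there. Reads of paralogs and of overlapping genes are uncertain.

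Counts were fitted with edgeR 4.0.16 in R 4.3.3 (TMM factors, filterByExpr by group as the filter on low counts, 1 mean per group, all 10 libraries in 1 fit, two-sided quasi-likelihood F test), with Benjamini-Hochberg adjustment over 15526 genes and calls at an adjusted p under 0.05. SEs and 95% intervals come from the fitted variance of the group means. In each line IFN-γ was set against untreated. The other 3 of the 5 comparisons were the difference of these responses and OVA against WT without and with IFN-γ. Levels are CPM with TMM factors. The table gives no lengths, so levels were divided by the coding length, and as an alternative chosen after seeing the data by the exon length, of 1 principal transcript per gene (GENCODE M21). Promoter sequences and coordinates are RefSeq's on GRCm38.p6, not the build of the counts. Promoters matched 9 of the 10 genes. Another promoter pattern and some listed genes are not reported here. Steps were tested on simulated data. Named were the 10 genes, up to 4 called genes per list with the largest log2 change in WT, Irf1, Psme2b and the 3 nearest genes by Pearson's r. Members and lists were chosen with earlier results of these data known. The alternatives were DESeq2 1.42.0, limma-voom (limma 3.58.1), no TMM factors, 2 other count filters, fits of the compared groups alone, a replicate block, a threshold of 0.01, Psme2 with Psme2b summed (added after seeing the data), other lengths, and each library left out in turn.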

Additional observations from a re-analysis of the deposited data

How the results depend on the processing

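The calls of Psmb8, Psmb9, Psmb10, Psmb6, Psme1, Psme2 and Pomp against untreated cells held in both lines under every alternative run, and so did that of Psmb7 in OVA. The calls of Psmb7 in WT, Psmb5 and Psme3 in OVA, and Psmb5 and Psmb7 between treated lines did not, as given above. Members called higher in treated OVA against treated WT numbered 1 with DESeq2, 5 without TMM factors, 5 with the replicate block, 0 at an adjusted p under 0.01 and 0 to 6 with 1 library left out (0 without treated WT library 1 or 2, 1 without treated OVA library 2 or 3, 6 without treated WT library 3). Members called lower by IFN-γ in OVA numbered 0 to 1 (0 without untreated OVA library 2), and members called higher in untreated OVA against untreated WT 0 to 1 (1, Psme3, without treated WT library 3). Over all genes, calls for the difference of responses numbered 53, against 103 with DESeq2, 284 with no filter, 165 with the replicate block, 21 at an adjusted p under 0.01 and 21 to 107 with 1 library left out (21 without untreated WT library 1, 23 and 22 without untreated OVA library 1 and 2, 107 without treated WT library 3). Calls between untreated lines numbered 859, against 552 with DESeq2, 381 at 0.01 and 350 to 1012 with 1 library left out (350 to 378 without an untreated one). Calls between treated lines numbered 2229, against 1454 with DESeq2, 1099 at 0.01 and 1431 to 2408 with 1 library left out (1431 without treated WT library 2, 1462 without treated OVA library 3).

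Shares of the inducible gene by exon length, and without length scaling where that moved them, were as follows. For Psmb8 they were 36.3% in treated OVA, against 0.0381% (0.0689% without length) in untreated OVA, and 36.7% (51.2%) in treated WT. For Psmb9 they were 41.8% (54.8%) in treated OVA and 44.1% (57.2%) in treated WT. For Psmb10 they were 63.9% in treated OVA, against 4.88% in untreated OVA, and 64.7% in treated WT, against 4.23% (4.75%) in untreated WT. Coding length from RefSeq proteins was not run.

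Changes of sign were seen only in values that were not called. Psme3 in WT was 0.0056 with no filter and -0.035 to 0.014 with 1 library left out. The difference of responses of Psmb6 was 0.0016 with DESeq2, 0.027 without TMM factors, 0.0096 with the stricter filter (1 CPM in 5 libraries) and -0.11 to 0.10 with 1 library left out, and that of Psmb9 was -0.52 to 4.11. Between untreated lines Psmb9 was -4.11 to 0.52 and Pomp -0.069 to 0.00083 with 1 library left out. Between treated lines Psmb9 was 0.019 without TMM factors, 0.00095 with no filter and -0.027 to 0.029 with 1 library left out, and Psme3 was -0.00068 with the stricter filter and -0.0071 to 0.021 with 1 library left out. The cause of these changes was not tested.

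Replicate numbers are shared between groups. Same-numbered libraries did not deviate together (13 pairs, correlation of deviations from -0.072 to 0.035). In a group of 2 libraries the deviations mirror each other, so these pairs are not independent. The labels do not say whether the numbers pair the libraries, and this check cannot decide it. The difference of responses has no separate fit with only the groups compared, since it uses all of them. Psmb8 and Psmb9 have 0 to 3 counts per untreated library, which limits their fold changes and their difference between lines, and 2 untreated libraries per line limit the small changes of the constitutive genes.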
